A study of Mus musculus with 6 samples.

Results

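The secreted Wnt antagonists Dkk1, Dkk2, Dkk3, Dkk4, Sfrp1, Sfrp2, Sfrp4, Sfrp5, Wif1 and Frzb were examined for DNA copy number in mouse malignant mesothelioma. Members were chosen by gene name: a probe belonged to a member when the denser array design annotated it with that name. All 10 members had a probe, and together they held 47 of 220065 autosomal probes and 10 of 24698 autosomal genes. Wnt proteins signal through Frizzled receptors and the co-receptors Lrp5 and Lrp6, which leads to accumulation of beta-catenin and transcription through TCF/LEF factors. Dkk1, Dkk2 and Dkk4 act at the co-receptors, whereas the Sfrp proteins, Frzb (also called Sfrp3) and Wif1 bind Wnt proteins outside the cell. In human mesothelioma several of these genes are known for promoter methylation, which a copy-number array does not read.

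Tumour DNA labelled with Cy5 was hybridised together with Cy3-labelled DNA of C57BL/6J mice, and a positive log2 ratio stands for a copy number above that of the reference. There were 6 arrays of 5 tumours (ARF-110, ARF-104, ARF-129, ARF-112 and ARF-128) in a study of asbestos-induced mesothelioma in mice with an inactivated Arf allele. The study's description gives the genotype Arf(+/-) for 4 mice, the source labels name primary mesothelioma cells except for ARF-104, and the labels do not say which of the 5 titles lies outside the 4. The tumours form a single group with no control tumours, the reference DNA is the same on every array, and the titles' numbers were taken as separate animals, so the tests measure the spread between these 5 samples only.

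ARF-110 was read on a sparser design (40283 autosomal probes) and ARF-104, ARF-112 and ARF-129 on a denser one (219977 to 220016). An array titled ARF-128 used the sparser design and one titled ARF-128PlusMinus the denser design. Both carry the source name ARF-128 and were counted as 1 tumour on that basis, although the labels leave PlusMinus unexplained. Values of ARF-128 are those of the denser array unless stated. Probe noise, an SD of log2 ratios estimated from neighbouring probes, was 0.152 in ARF-110, between 0.364 and 0.487 in ARF-104, ARF-112 and ARF-129, and for ARF-128 it was 0.776 on the denser and 0.430 on the sparser array. Precision is limited by the number of tumours, 5, and the value of a gene with 1 probe also carries that probe's noise. A gain of 1 copy in every diploid cell would give 0.58 on the log2 scale and a loss of 1 copy -1.

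The members lie on 7 autosomes (mm7 coordinates, outer ends of their probes). Dkk1 (chr19:30245494-30245553) and Sfrp5 (chr19:42092528-42092585) are 11.8 Mb apart, and Dkk4 (chr8:21412331-21412390) lies 0.786 Mb from Sfrp1 (chr8:22198495-22233074), so each of that pair is in the other's flank. Sfrp2 (chr3:83872225-83879088) and Dkk2 (chr3:131885454-131975121) are 48.0 Mb apart. Dkk3 is at chr7:108032902-108070804, Sfrp4 at chr13:18994437-18999544, Wif1 at chr10:120431114-120493244 and Frzb at chr2:80259999-80287130. Whether a probe is exonic, intronic or in a UTR was not determined, because no mm7 annotation was used here. Dkk2 had 13 probes, Wif1 9, Dkk3 and Sfrp1 7 each, Frzb 4, Sfrp2 and Sfrp4 2 each, and Dkk1, Dkk4 and Sfrp5 1 each. Of the 47 probes 17 were also on the sparser design, with at least 1 for every member.

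The probes on which the results turn are shown as the array design gives them, in lower case. The first 3 are the single probes of Dkk4, Dkk1 and Sfrp5, on which each of those genes' values rests. The next 2 are both probes of Sfrp4, and the last 2 are neighbouring Sfrp1 probes that read far apart on every denser array.
Dkk4 probe: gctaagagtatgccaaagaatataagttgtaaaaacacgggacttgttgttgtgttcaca
Dkk1 probe: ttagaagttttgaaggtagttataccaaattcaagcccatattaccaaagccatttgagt
Sfrp5 probe: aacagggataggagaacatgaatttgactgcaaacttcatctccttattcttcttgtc
Sfrp4 probe, first: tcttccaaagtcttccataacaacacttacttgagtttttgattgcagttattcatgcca
Sfrp4 probe, second: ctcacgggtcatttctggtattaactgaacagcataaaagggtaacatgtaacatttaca
Sfrp1 probe, lower: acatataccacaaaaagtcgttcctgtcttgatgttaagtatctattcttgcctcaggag
Sfrp1 probe, higher: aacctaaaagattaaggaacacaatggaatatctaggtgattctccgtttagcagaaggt

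Member probes were 56 to 60 bases long with a median GC content of 36.7%, the same median as all autosomal probes. Before labelling, the DNA was cut with AluI and RsaI, whose sites are AGCT and GTAC, both palindromes. None of the 47 member probes held either site, and 0.0223% and 0.0136% of all autosomal probes did. None of the 222 member spots was marked in the deposited files as an outlier, as not well above background or as saturated.

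For each gene, the mean log2 ratio of its own probes was taken as its level. That of all other probes within 1 Mb on either side was its flank. Setting them side by side asks whether a gene reads apart from its surroundings. The arrays share a reference and probes, so a probe offset that repeats over arrays cannot be told apart from copy number by these tests. Dkk1 and Sfrp5 were present at a higher level in all 5 tumours, as were their flanks. Dkk4 read above its flank, and no member read below its flank past the test's threshold. Tested with limma across all genes with Benjamini-Hochberg adjustment and a threshold of 0.05, 1 of 10 members was higher than its flank and 0 were lower, against 11.1% and 10.9% of 24694 genes tested. The 0 lower members were also 0 at an unadjusted p under 0.05. By level 2 of 10 were higher and 0 lower (1, Sfrp4, at an unadjusted p under 0.05), against 9.4% and 8.13% of genes, and by flank level 2 were higher and 0 lower (0 unadjusted), against 3.78% and 0.405%. Both members with a called level also had a called flank, and both lie on chromosome 19. The members' count against the flank was near the background share. Their median was 0.10 by level and 0.09 relative to the flank, against -0.01 and -0.00047 over all genes tested.

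**Figure D1:**
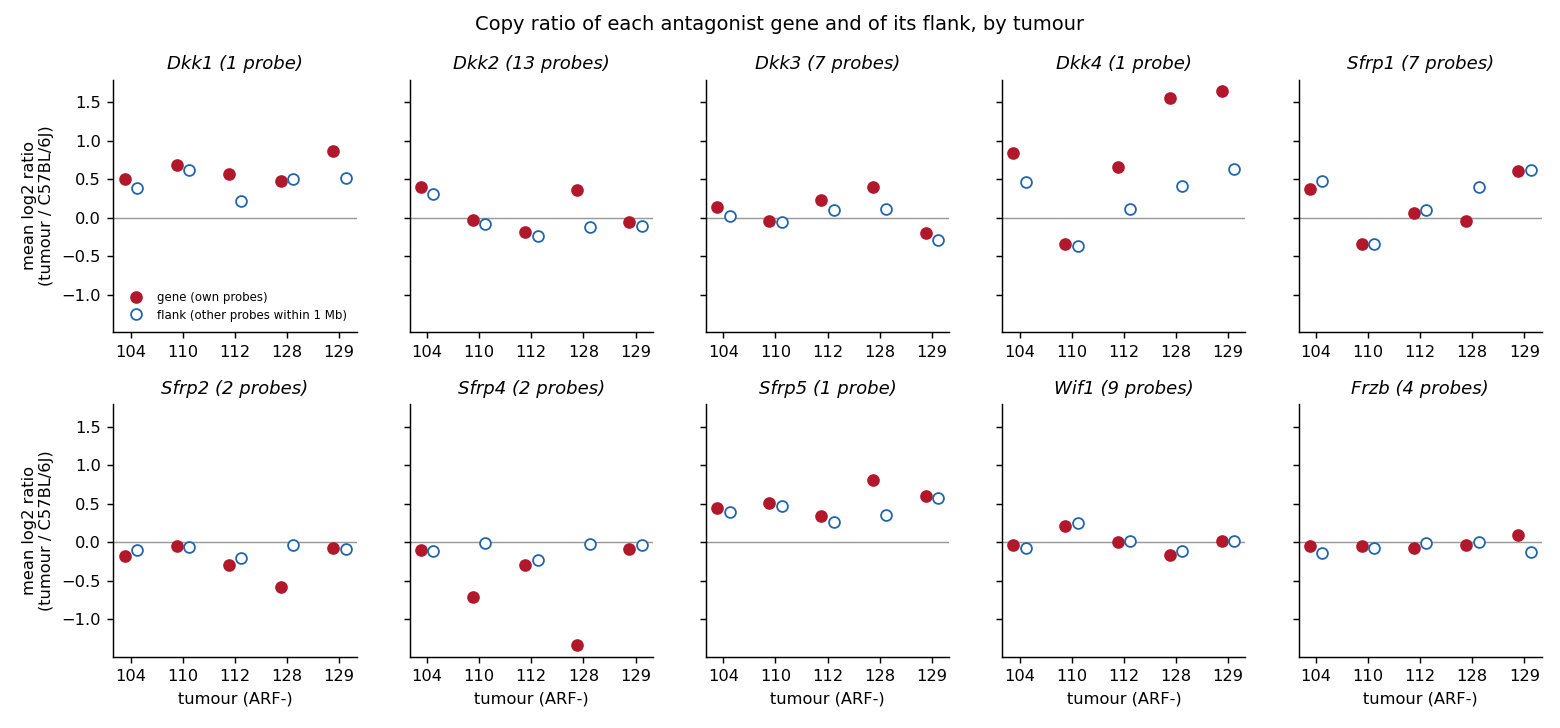
Mean log2 ratio of tumour over C57BL/6J DNA (vertical axis) in the 5 tumours (horizontal axis) for each of the 10 genes, with filled points for the gene's own probes and open points for the flank. Dkk1 and Sfrp5 lie above 0 with their flanks in all 5 tumours, and Dkk4 stands above its flank most widely in ARF-128 and ARF-129.

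Dkk1, a high-affinity Lrp5/6 ligand that blocks canonical Wnt signalling, had levels of 0.68 in ARF-110, 0.86 in ARF-129, 0.50 in ARF-104, 0.48 in ARF-128 and 0.57 in ARF-112. All 5 tumours were above 0 and ARF-129 was the highest. The mean was 0.62 ± 0.16 (SD, n = 5; limma adjusted p = 0.010), and the flank of 217 probes on the denser design averaged 0.45 ± 0.15 (limma adjusted p = 0.0052). The gene exceeded its flank by 0.11, 0.06, 0.35 and 0.35 in ARF-104, ARF-110, ARF-112 and ARF-129, and stood at -0.02 against it in ARF-128. The mean difference of 0.17 (95% interval -0.01 to 0.35) did not pass the test (limma adjusted p = 0.130). On the sparser array of ARF-128 the same probe read 1.27, against 0.48 on the denser array, and with the mean of both arrays the difference of 0.25 passed (limma adjusted p = 0.025).

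Sfrp5, a secreted Frizzled-related inhibitor, had levels of 0.51 in ARF-110, 0.60 in ARF-129, 0.45 in ARF-104, 0.81 in ARF-128 and 0.34 in ARF-112. All 5 were above 0, with ARF-128 the highest. The mean was 0.54 ± 0.18 (SD, n = 5; limma adjusted p = 0.014), and its flank averaged 0.42 ± 0.12 (limma adjusted p = 0.0047). Gene minus flank was between 0.02 and 0.07 in the other 4 tumours and 0.45 in ARF-128, where the sparser array gave -0.30. Its mean of 0.12 (95% interval -0.06 to 0.31) did not pass (limma adjusted p = 0.259), and it was -0.03 with the sparser ARF-128 array. After normexp background correction the level of Sfrp5 was 0.29 (limma adjusted p = 0.041). Chromosome 19 as a whole averaged 0.43 ± 0.13, so both genes were measured within a chromosome that was high in every tumour.

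The level calls of both genes were lost in some fits with 1 tumour left out, where fewer genes of the whole table passed. Without ARF-129, 0 genes passed by level in either direction. At an unadjusted limma p under 0.05 there were 3282 higher and 3127 lower in that fit. Without ARF-104, 433 higher and 331 lower genes passed, against 2321 and 2007 with all 5 tumours. Dkk1 lost its call without ARF-129 (0.56, limma adjusted p = 0.068), and Sfrp5 lost it without ARF-104 (0.56, limma adjusted p = 0.054) or without ARF-129 (0.52, limma adjusted p = 0.076). With the scan day as a random block (3 days, correlation 0.424) the limma adjusted p was 0.053 for Dkk1 and 0.057 for Sfrp5. In that fit 231 higher and 180 lower genes of the whole table passed by level. The 3 days coincide with the 3 Feature Extraction versions, and the only array of the first day in this fit, that of ARF-110, is also the only one of the sparser design, so these cannot be told apart.

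Dkk4, a further Lrp5/6-binding inhibitor, had levels of -0.34 in ARF-110, 1.65 in ARF-129, 0.84 in ARF-104, 1.55 in ARF-128 and 0.66 in ARF-112. ARF-128 and ARF-129 were the highest and ARF-110 was the only tumour below 0. The mean level was 0.87 ± 0.80 (SD, n = 5; limma adjusted p = 0.051). It passed in 5 of 14 alternatives, among them that without ARF-110 (1.18, limma adjusted p = 0.0087), and was 0.12 after normexp (limma adjusted p = 0.392). Relative to its flank, Dkk4 stood at 0.02 in ARF-110, 1.02 in ARF-129, 0.37 in ARF-104, 1.14 in ARF-128 and 0.55 in ARF-112. All 5 values were above 0, and that of ARF-110 was small against its flank's probe SD of 0.188. The mean difference was 0.62 ± 0.46 (SD, n = 5; 95% interval 0.21 to 1.03; limma adjusted p = 0.047). The sparser array of ARF-128 gave 0.91 with the same probe.

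The excess of Dkk4 over its flank was measured by 1 probe and was not kept under normexp background correction. That setting used mean spot signals in place of processed ones and an offset of 50. The part of background handling alone was not tested. After normexp background correction the difference averaged -0.04 (limma adjusted p = 0.544), with -0.04 in ARF-110, -0.03 in ARF-129, -0.11 in ARF-104, -0.13 in ARF-128 and 0.12 in ARF-112. The processed green (C57BL/6J) intensity of the probe was 405 to 621 on the 4 denser arrays and 1266 and 1667 on the sparser ones; the part of this in the result was not tested. The call was also lost without ARF-104 (0.68, limma adjusted p = 0.114), ARF-112 (0.64, adjusted p = 0.131), ARF-128 (0.49, adjusted p = 0.063) or ARF-129 (0.52, adjusted p = 0.153), and kept without ARF-110 (0.77, adjusted p = 0.021). With ARF-129, ARF-104 or ARF-112 left out, 0 genes of the whole table passed in either direction, with at least 3507 in each at an unadjusted p under 0.05. With the scan day as a random block (correlation 0.865) it was 0.60 (limma adjusted p = 0.365), and in that fit 0 of 24694 genes passed in either direction, with 2171 higher and 2124 lower at an unadjusted p under 0.05.

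**Figure D2:**
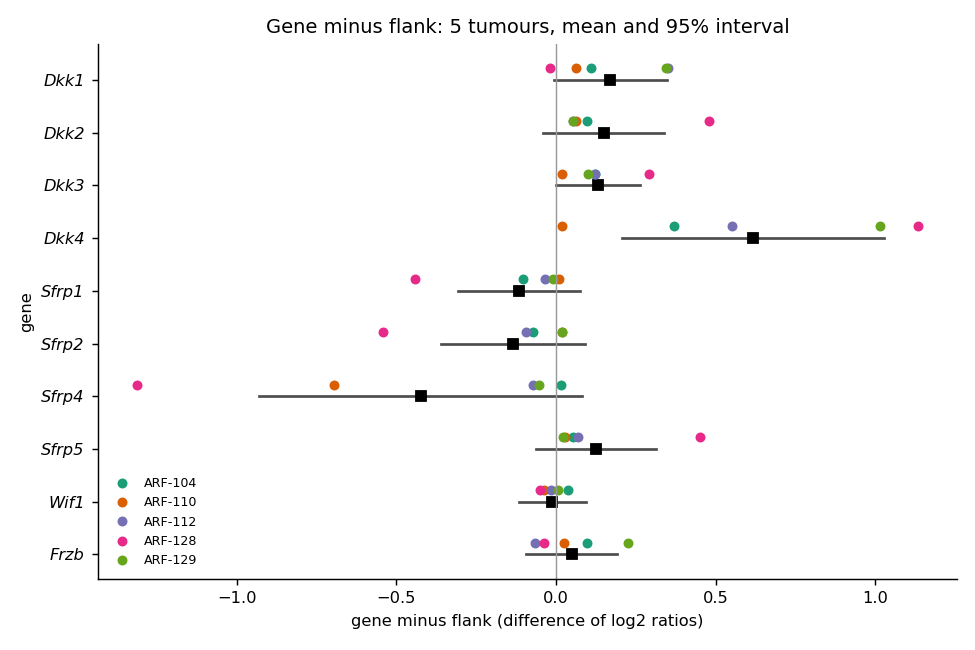
Gene minus flank, as a difference of log2 ratios (horizontal axis), for the 10 genes: coloured points are tumours, squares the mean of 5 and bars the 95% interval from limma. The interval of Dkk4, 0.21 to 1.03, lies above 0, and those of the other 9 genes reach 0.

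The nearest gene probed after Dkk4, BC060998, lies 1.12 kb away and stood 0.26 ± 0.16 above its own flank (SD, n = 5; limma adjusted p = 0.048). On the other side Vdac3, which encodes a mitochondrial outer-membrane channel, was 34.3 kb away, and its difference of 0.16 ± 0.15 did not pass (limma adjusted p = 0.129). AK077946, the nearest gene probed before Sfrp1, stood 0.50 ± 0.28 above its own flank (SD, n = 5; limma adjusted p = 0.030) with 1 probe. Sfrp1, the Frizzled-related inhibitor that shares the region, had levels of -0.34 in ARF-110, 0.61 in ARF-129, 0.37 in ARF-104, -0.05 in ARF-128 and 0.07 in ARF-112. ARF-104 and ARF-129 were highest and ARF-110 lowest. Its mean difference from the flank was -0.12 ± 0.19 (95% interval -0.31 to 0.07; limma adjusted p = 0.298), and with only the probes on both designs it was 0.30 (limma adjusted p = 0.099). In ARF-110 the values of the pair were alike, at -0.34 for each, beside flanks of -0.36 for Dkk4 and -0.35 for Sfrp1.

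**Figure D3:**
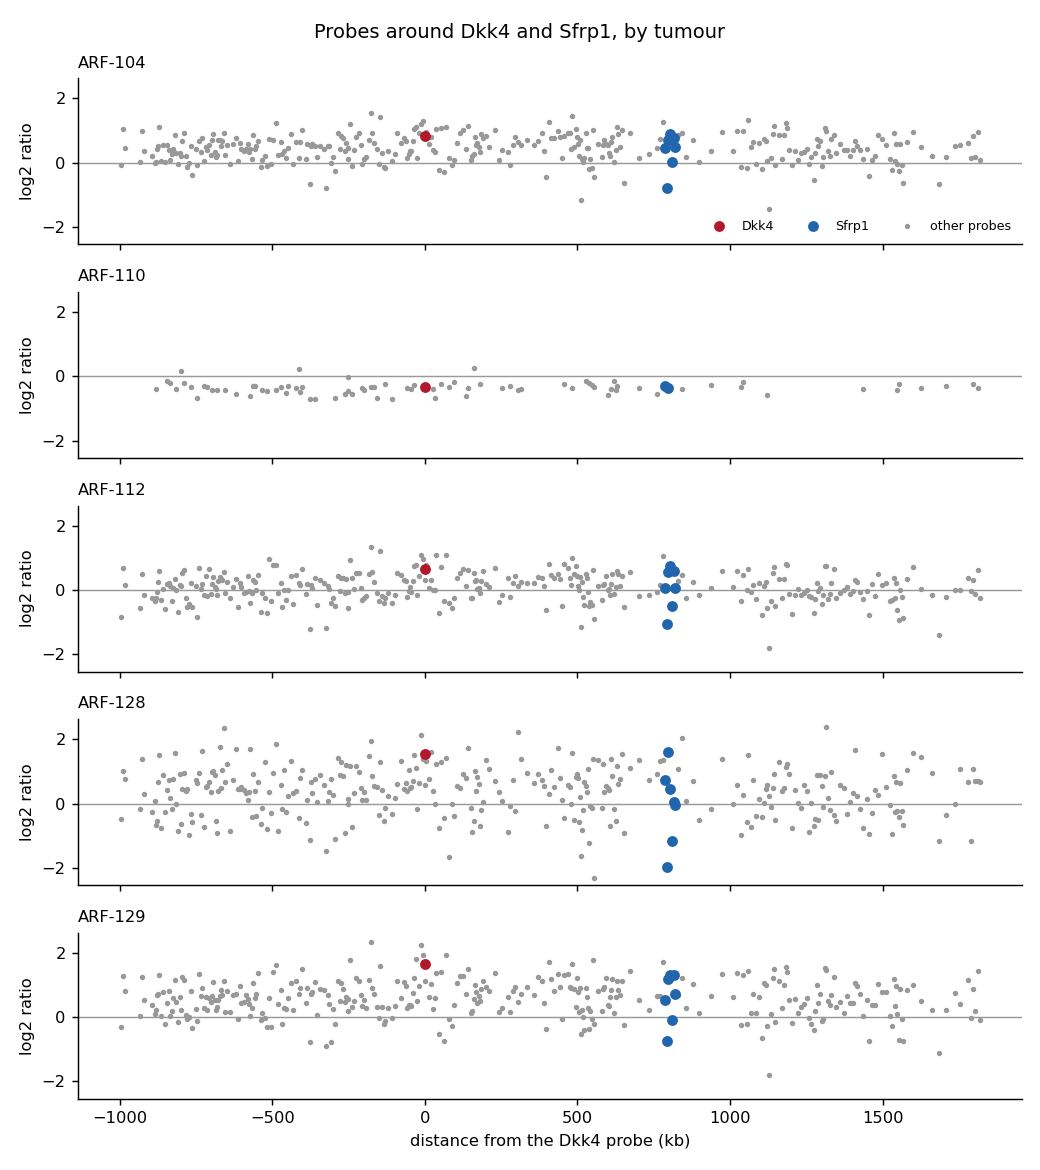
Log2 ratio of single probes (vertical axis) against distance in kb from the Dkk4 probe (horizontal axis), 1 panel per tumour, with Dkk4 in red, Sfrp1 in blue and other probes in grey. Dkk4 stands at 1.65 in ARF-129 and 1.55 in ARF-128, where some nearby probes read higher and others lower. The probe at -5.85 kb reads 1.94 in ARF-129 and 1.39 in ARF-128, and that at 1.176 kb reads 1.14 and 0.58. In ARF-110 the Dkk4 probe, at -0.34, also lies among its neighbours.

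Sfrp4, another Frizzled-related protein, had levels of -0.71 in ARF-110, -0.09 in ARF-129, -0.10 in ARF-104, -1.34 in ARF-128 and -0.30 in ARF-112. All 5 were below 0, but ARF-110 and ARF-128 stood far below the other 3. Its flank was between -0.23 and -0.01 in every tumour. The mean level was -0.51 ± 0.53 (SD, n = 5; limma adjusted p = 0.083), and gene minus flank averaged -0.42 ± 0.57 (95% interval -0.93 to 0.08; limma adjusted p = 0.171). In ARF-128 the probes read -1.33 and -1.35, and on the sparser array the second probe, shown above, read -0.78. With the sparser array in place of the denser one the level passed (-0.39, limma adjusted p = 0.035), as it did with the mean of both (-0.45, limma adjusted p = 0.040). Without ARF-128 the level was -0.30 (limma adjusted p = 0.104) and gene minus flank -0.20, and after normexp they were -0.20 and -0.17. The neighbouring genes did not share this, with 0.47 for Epdr2 and 0.03 for Txndc3 in ARF-110, and 0.14 for Epdr2 and -0.03 for Txndc3 in ARF-128.

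Sfrp2, a Frizzled-related protein, had levels of -0.04 in ARF-110, -0.07 in ARF-129, -0.18 in ARF-104, -0.58 in ARF-128 and -0.29 in ARF-112. All 5 were below 0, and the mean of -0.23 ± 0.22 did not pass (limma adjusted p = 0.151). Sfrp2 and Sfrp4 were the 2 of 10 members below 0 in every tumour, against 17% of 19900 genes measured in all 5, and Dkk1 and Sfrp5 the 2 above 0, against 14.8%. Relative to the flank, 4 of 10 members (Dkk2, Dkk3, Dkk4 and Sfrp5) were above 0 in every tumour and 0 below, against 19.2% and 18.2% of 19602 genes. After normexp 0 members were above in every tumour (15.5% of genes), and with the sparser ARF-128 array there were 3, Dkk1, Dkk2 and Dkk4 (22.7%).

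Dkk2, which can activate or inhibit Wnt signalling depending on the co-receptors and Kremen proteins present, had levels of -0.03 in ARF-110, -0.05 in ARF-129, 0.40 in ARF-104, 0.36 in ARF-128 and -0.18 in ARF-112. Its difference from the flank was 0.15 ± 0.19 (limma adjusted p = 0.191), and ARF-128, at 0.48, was the highest. It was 0.07 without ARF-128 and 0.06 after normexp. Only with the probes on both designs did it pass, at 0.54 (limma adjusted p = 0.044), where 2 of its 13 probes remain. Of these, 1 was the highest of the 13 on all 4 denser arrays. It averaged 0.77 above the main flank, against 0.21 for the other. Dkk3, a divergent family member, had levels of -0.04 in ARF-110, -0.19 in ARF-129, 0.14 in ARF-104, 0.41 in ARF-128 and 0.23 in ARF-112, and exceeded its flank by 0.13 ± 0.10 (limma adjusted p = 0.120).

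Wif1, which binds Wnt proteins through its WIF domain, was at 0.21 in ARF-110, 0.02 in ARF-129, -0.03 in ARF-104, -0.16 in ARF-128 and 0.01 in ARF-112. The highest value, that of ARF-110, stood beside a flank of 0.25. Frzb, a Frizzled-related protein, stayed between -0.07 and 0.10 in the 5 tumours. The differences from the flank averaged -0.01 ± 0.03 for Wif1 (95% interval -0.12 to 0.09) and 0.05 ± 0.12 for Frzb (95% interval -0.09 to 0.19). By mean level the order was Dkk4, Dkk1, Sfrp5, Sfrp1, Dkk3, Dkk2, Wif1, Frzb, Sfrp2 and Sfrp4. Each gap between neighbours in this order was smaller than the larger of their SDs over the tumours, except that of 0.41 between Sfrp5 and Sfrp1.

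Probes of 1 gene read far apart on the same array. On the denser arrays, the lower Sfrp1 probe shown above was the lowest of 7 in all 4, at -1.97 to -0.74, while the higher one beside it read 0.71 in ARF-104, 1.19 in ARF-129, 0.55 in ARF-112 and 1.61 in ARF-128. In Dkk2 1 probe was the highest of 13 in all 4 denser arrays (0.39 to 1.40) and another the lowest (-1.10 to -0.18). In Dkk3 1 probe was the highest of 7 in all 4 (0.40 to 2.10) and another the lowest (-1.16 to -0.26). These 4 arrays share the C57BL/6J reference. Of the 17 member probes on both arrays of ARF-128, 14 had the same sign on both, and the root mean square difference was 0.561.

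**Figure D4:**
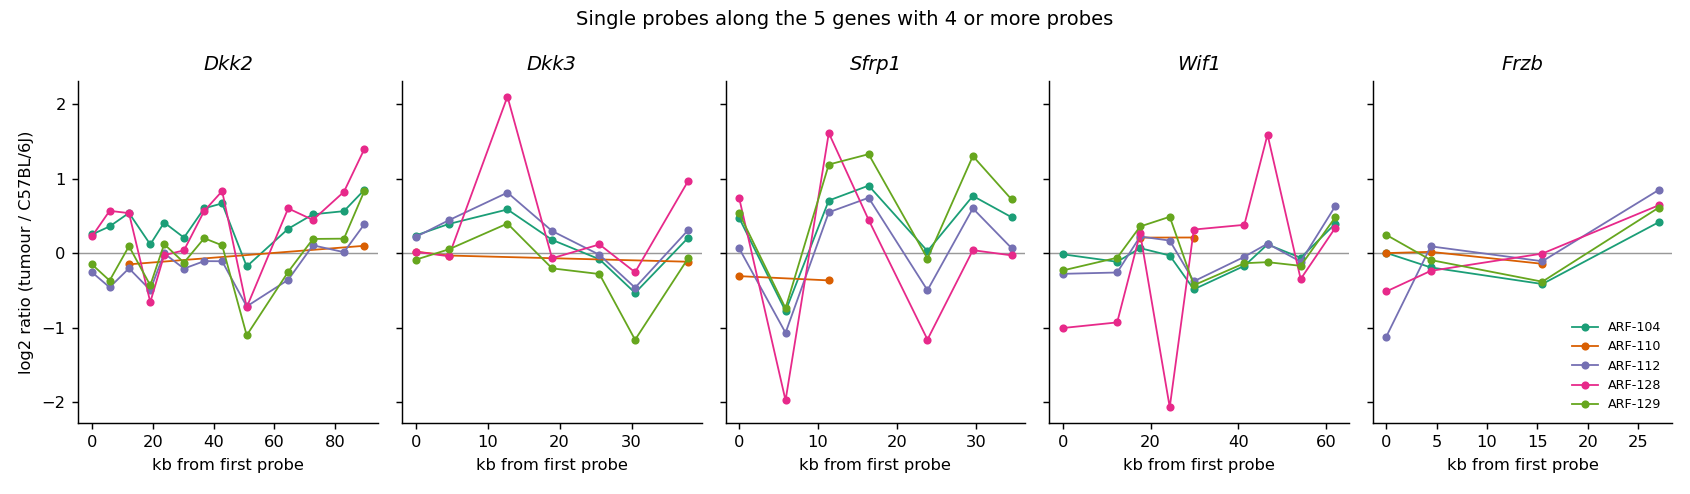
Log2 ratio of each probe (vertical axis) along the 5 genes with 4 or more probes, by distance in kb from the gene's first probe (horizontal axis), with 1 line per tumour. In Sfrp1 the second probe along the gene is the lowest on all 4 denser arrays, and ARF-110, read on the sparser design, has fewer points.

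Segmentation put the members in stretches of many megabases, except Sfrp4 in ARF-110. There the second Sfrp4 probe, the one on the sparser design, is the first of a stretch of 1.56 Mb (mean -0.18), which follows a stretch of 6 probes with a mean of 0.43; the gene's segment value, averaged over the positions of both its probes, was 0.12 and not called. With a call at a mean of 0.25 or beyond in either direction, 17 of 50 pairs of member and tumour were gained and 5 lost. In ARF-104, 5 of 10 members were gained (Dkk1, Dkk2, Dkk4, Sfrp1 and Sfrp5) and 0 lost, against 15.9% and 0.526% of all genes. In ARF-110, 3 were gained (Dkk1, Sfrp5 and Wif1) and 2 lost (Dkk4 and Sfrp1), against 13.7% and 2.85%. In ARF-112, 1 was gained (Sfrp5) and 2 lost (Dkk2 and Sfrp2), against 10.7% and 11.3%. In ARF-128, 4 were gained (Dkk1, Dkk4, Sfrp1 and Sfrp5) and 0 lost, against 8.71% and 1.86%. The same 4 were gained in ARF-129 and Dkk3 was lost, against 22.1% and 28.2%. Members that share a segment are not independent counts. The Dkk1 segment in ARF-112 (0.246) lay just short of a call and that of Dkk2 (-0.252) just past it.

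The stretch over Dkk4 and Sfrp1 had a mean of -0.38 in ARF-110, 0.58 in ARF-129, 0.45 in ARF-104, 0.44 in ARF-128 and 0.09 in ARF-112. The pair was gained in 3 tumours, over 32.9 Mb in ARF-104, 100.2 Mb in ARF-129 and 124.8 Mb in ARF-128, and lost in 1, over 48.2 Mb in ARF-110. The Sfrp5 stretch was gained in all 5 tumours, at 0.27 to 0.58, and Dkk1 in 4.

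The nearest genes probed on either side of the members numbered 20, of which 3 were higher and 2 lower by level, and 2 were higher and 1 lower relative to their own flanks. Beside Dkk1, Prkg1, a cGMP-dependent protein kinase, was higher by level (0.59 ± 0.39, limma adjusted p = 0.030), and Mbl2, a mannose-binding lectin, stood at -0.15 ± 0.48. Beside Sfrp5, 4933417O08Rik was higher by level (0.65 ± 0.35, limma adjusted p = 0.018) and Zfyve27 stood at 0.28 ± 0.16. AK077946 beside Sfrp1 was also higher by level (0.74 ± 0.64, limma adjusted p = 0.045). Beside Frzb, Dnajc10, a chaperone of the endoplasmic reticulum, was lower by level (-0.38 ± 0.18, limma adjusted p = 0.034) and relative to its flank (-0.35 ± 0.14, limma adjusted p = 0.025). Beside Sfrp2, AK137033 was lower by level (-0.41 ± 0.16, SD, n = 4, without ARF-110; limma adjusted p = 0.042). The other neighbours, AK076734 and AK052732 (Dkk2), Usp47 and Mical2 (Dkk3), Zmat4 (Sfrp1), AK006465 (Sfrp2), AK140538 and AK015296 (Wif1) and Nckap1 (Frzb), did not pass in either test.

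Among genes outside the members' own flanks, the one closest to Dkk4 in level over the 5 tumours was AK082666 (root mean square difference 0.156). It lies on chromosome 16, has 1 probe and was the closest of 19854 genes compared. The gene closest to Dkk1 was Mus81 on the same chromosome (0.0534), and to Sfrp5 it was Gnaq, also on chromosome 19 (0.0365).

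Of 88 other genes of the pathway, chosen by function, 78 were measured. By level 10 (12.8%) were higher and 1 (1.28%) lower, against 9.4% and 8.13% of all genes, with a median of 0.07 against -0.01 for all genes. Of those higher, Wnt7b, Fzd6 and Rspo2 lie on chromosome 15, and Wnt8b, Lrp5, Btrc and Tle4 on chromosome 19. None of these passed against its flank, and genes that share a chromosome are not independent counts. The others higher by level, Wnt8a, Kremen2 and Ccnd1, also passed against the flank. Relative to the flank 8 (10.3%) were higher and 4 (5.13%) lower, against 11.1% and 10.9%. With the scan day as a random block 0 of the 78 passed in either test, where 231 higher and 180 lower genes of the whole table passed by level and 0 relative to the flank. Of 19 Wnt ligands 3 were higher by level, Wnt8a (0.61 ± 0.26), Wnt7b (0.56 ± 0.30) and Wnt8b (0.48 ± 0.26). Relative to the flank 3 were higher, Wnt8a (0.60 ± 0.26), Wnt10a and Wnt4, and 1 was lower (Wnt7a). Of 13 receptors and co-receptors 2 were higher by level. Fzd6 stood at 0.47 ± 0.22, and Lrp5, a Wnt co-receptor, which lies on chromosome 19, at 0.59 ± 0.14 (limma adjusted p = 0.011). Against the flank 1 receptor was higher (Ror2) and 1 lower (Ryk). Of 5 Dkk receptors and other secreted inhibitors, Kremen2, a Dkk receptor, was higher by level (0.45 ± 0.17) and against its flank (0.34 ± 0.04, limma adjusted p = 0.018). Dkkl1, with 1 probe, was lower in both (-0.90 ± 0.76 and -0.87 ± 0.66). Of 6 R-spondins, their receptors and ligases 1 was higher by level (Rspo2), and neither direction passed against the flank. The 1 Wnt secretion gene measured did not pass in either test. Of 15 cytoplasmic genes Btrc was higher by level, and Ctnnb1, which encodes beta-catenin, was lower than its flank (-0.27 ± 0.11, limma adjusted p = 0.029). Of 11 TCF/LEF factors and partners Tle4 was higher by level and Tle2 higher than its flank. Of 10 target genes Ccnd1 was higher in both tests (0.78 ± 0.45 and 0.85 ± 0.52, without ARF-110, which has no Ccnd1 probe), and Ascl2 was higher than its flank. Ccnd1 and Ascl2 had 1 probe each.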

How the data were processed

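Spot intensities (processed red and green signals) come from Agilent Feature Extraction, version 8.5.1.1, 9.1.3.1 or 9.5.3.1 per the file headers. The deposited value table repeats them as ratios, on a log10 scale (sparser design) or a log2 scale (denser design). Coordinates are mm7, per the header of 1 denser-design file, and sparser-design probes were joined by probe name. Log2 ratios of processed intensities were taken, control and outlier spots left out, repeated probes averaged, and arrays centred on their autosomal median. Flanks of at least 10 probes within 1 Mb were used. Means were tested with limma 3.58.1 (R 4.3.3; intercept, eBayes, Benjamini-Hochberg over all genes with a value in at least 4 tumours). Segments of 5 or more probes were found with the PELT algorithm at a penalty of 5 log n (numpy 2.4.6). Both steps were run on simulated data with independent noise and no probe offsets that repeat over arrays. Those runs cannot show whether calls hold where such offsets repeat. Alternatives covered background correction, centring, array choice, flank, probe filters, scan day and each tumour. Named genes were all members, their neighbours, up to 3 passing genes per direction of each list, and the closest patterns of 3 members. Members and lists were chosen with earlier results of these data known.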

Additional observations from a re-analysis of the deposited data

Results flagged for a closer look

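Among 20 sets of 5 tumours (level and gene minus flank of each member), 5 had a tumour far from the others by Dixon's test. For independent sets of values with equal spread, chance gives about 1 set in 20. In 4 of the 5 flagged sets the tumour was ARF-128, read on the noisiest array (probe noise 0.776, against 0.152 in ARF-110). With unequal noise, and with level and gene minus flank sharing the gene's values, that chance rate need not hold here. Gene minus flank in ARF-128 was 0.48 for Dkk2 (highest), -0.44 for Sfrp1 (lowest), -0.54 for Sfrp2 (lowest) and 0.45 for Sfrp5 (highest). On its sparser array the same differences were 0.55 for Dkk2, 0.11 for Sfrp1, -0.41 for Sfrp2 and -0.30 for Sfrp5, so those of Sfrp1 and Sfrp5 had the opposite sign. The fifth was the level of Frzb in ARF-129, 0.10, above 4 tumours between -0.07 and -0.03. The part of array noise in these values was not tested.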

How the results depend on the processing

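Of 335 member values under alternatives, 314 kept their side of the threshold, 11 lost a call, 9 gained one and 1 called value changed sign (Dkk4 minus flank, -0.0369 after normexp). A further 9 values with no call in either setting changed sign, in Sfrp5, Wif1, Sfrp1 and Frzb minus flank and in Wif1 and Frzb level. The count of members above their flank, 1, was 0 with the scan day as a block, normexp, a 0.5 Mb flank, or only genes with at least 3 own probes (which leaves out Dkk4), and 2 with only shared probes or when both ARF-128 arrays were averaged. Leaving out each tumour gave 0 to 1. Over all genes, leaving out each tumour gave 0 to 4309 above and 0 to 4011 below the flank; both were 0 without ARF-104 (3710 and 3667 at an unadjusted p under 0.05), ARF-112 (3630 and 3670) or ARF-129 (3558 and 3507). With the scan day as a block both were 0. By level, 2 members were higher, 0 with the scan day as a block, 3 (with Dkk4) when centred on the mean, with the sparser ARF-128 array, with both its arrays averaged or with only shared probes, and 0 to 3 with each tumour left out, and 1 member was lower with the sparser ARF-128 array or the mean of both. Over all genes, 2321 higher and 2007 lower by level became 231 and 180 with the scan day as a block, 0 to 3119 and 0 to 2641 with each tumour left out (0 without ARF-129, 3282 and 3127 unadjusted), and 698 lower after normexp. Lost member segments, 5, were 3 at a threshold of 0.35, 3 at a penalty of 10 log n and 2 after normexp. No paired analysis was possible because the tumours form 1 group. Single-probe genes (Dkk1, Dkk4, Sfrp5) cannot be checked against a second probe.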
